A study of Homo sapiens with 18 samples.

Results

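The interferon-stimulated genes described here are 44 genes that cells switch on in response to interferon, from the transcription factors that relay the signal to the antiviral proteins it induces. They were chosen by name, with earlier results of these data known, and each symbol was matched to its Ensembl gene identifier. Counts of members set beside all genes are therefore descriptions, without a test. Of the 44 genes, 42 had at least 10 reads in at least 1 of 18 RNA-seq libraries, out of 26436 genes that did so and 62703 genes listed in all. HERC6 and CMPK2 did not reach 10 reads in any library, with at most 3 reads each. Of the 42, 31 reached 10 reads in every library and 11 in some of them, so a gene that passed only in the group where it was high had to differ. Within a line this holds for MX2 in AMO1, through the libraries labelled gN1E, and for OAS3 in AMO1, XAF1 in H929 and IFI44L in LP1, through those labelled SCR. Counts and medians of members below 0 are therefore also given over genes that reached 10 reads in at least 1 library of each group, a limit added after the data were seen.

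Type I interferons bind a receptor at the cell surface whose kinases, JAK1 and TYK2, phosphorylate transcription factors that include STAT2. STAT2 and IRF9 belong to a complex that binds the interferon-stimulated response element in the promoters of its target genes. The products of those genes sense viral RNA, block translation and replication, tag proteins with ISG15 and keep the response running. Multiple myeloma is a tumour of plasma cells, the cells that secrete antibodies.

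The libraries came from human cell lines of multiple myeloma, carrying the labels AMO1, H929 or LP1, each of them 1 established line, so the libraries of a line share their source. In each line 3 libraries were labelled gN1E, for an antisense LNA gapmeR against the long non-coding RNA NEAT1, and 3 were labelled SCR, for a scrambled control gapmeR. Both gapmeRs were taken up from the medium without a transfection reagent (gymnosis) for 48 h, and stranded total RNA was sequenced in read pairs. The study asked what changes in myeloma cells when NEAT1 is silenced. Depth, as total counts, lay between 28061606 and 69937229, with medians of 29663430 (gN1E) and 56549069 (SCR) for AMO1, 56022788 and 48902120 for H929, and 45406587 and 64358551 for LP1. Depth therefore differed with the gapmeR label, in the opposite direction in H929, and its part in the results was not tested. Nothing in the labels says that libraries of a group came from separate cultures, so p-values measure the spread between these libraries, which may be technical.

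Against the sample labels, names written within the count tables swap gN1E and SCR in every line, and also LP1 and H929. The sample labels are followed here, and every direction is that of libraries so labelled. The leading immunoglobulin V segments, which mark a B-lineage clone, were compared between lines in CPM, counts scaled by each library's total. The heavy chain segment IGHV3-23 lay between 1543 and 2212 CPM in the libraries labelled AMO1, between 1080.0 and 2106 CPM in those labelled H929, and had 0 reads in each library labelled LP1. The kappa segment IGKV3-20 likewise lay between 1168 and 1881 CPM under AMO1 and between 876 and 1586 CPM under H929. The lambda segment IGLV3-21 lay between 1002 and 1209 CPM under H929 and had at most 2 reads in a library labelled AMO1. Libraries labelled AMO1 and H929 thus share heavy and kappa segments, and whether they share cells was not tested. A call made in both is for that reason not taken as made in unrelated lines.

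NEAT1 (ENSG00000245532.11, chromosome 11 of hg38, 65422774 to 65445540), the gapmeR's target, was read first, as CPM with TMM-scaled library sizes, the scale of all CPM values below. Values are given in the order of the replicate letters, A, C and D for AMO1, A, B and C for H929, and A, B and D for LP1. Under AMO1, NEAT1 measured 493, 576 and 539 CPM in the gN1E libraries and 78.8, 81.7 and 94.6 CPM in the SCR libraries. Under H929 it measured 581, 482 and 564 CPM (gN1E) and 84.3, 75.9 and 83.5 CPM (SCR). Under LP1 it measured 605, 613 and 771 CPM (gN1E) and 122, 157 and 174 CPM (SCR). NEAT1 was thus high in all 9 libraries labelled with the gapmeR meant to lower it, with no overlap in any line, which goes against the label. Its log2 fold change, gN1E minus SCR as everywhere below, was 2.66 (SE 0.0744), 2.74 (SE 0.0683) and 2.14 (SE 0.19) in AMO1, H929 and LP1. Adjusted p-values here and below come from the quasi-likelihood fit of edgeR, adjusted by Benjamini-Hochberg (BH) over all genes tested in the line, called at 0.05, and for NEAT1 edgeR gave 5.10e-13, 3.11e-14 and 0.0269. The two-sided exact permutation test gave p = 0.1 in each line, the smallest that 3 against 3 allow. In LP1 the edgeR adjusted p of NEAT1 was 0.176 omitting SCR B, 0.111 omitting gN1E A, 0.0886 omitting gN1E B and 0.0578 omitting gN1E D.

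In the gN1E libraries, where NEAT1 was high, 2, 15 and 11 interferon-stimulated genes were called lower and 0 higher in AMO1, H929 and LP1. H929 had 15 of 39 tested members called, all 15 lower in the gN1E libraries, among them IRF7, MX1, PARP9, OAS1, SAMD9L and HELZ2. Of all 23499 genes tested, 5.47% were called and 1.77% were called lower. Of the 39 members, 32 had a log2 fold change below 0, and their median was -0.33, against 52.1% below 0 and a median of -0.01 over all genes. Over genes that reached 10 reads in both groups, which leaves out XAF1, these were 31 of 38 and -0.30, against 52.3% and -0.01. For 21 members all 3 gN1E libraries lay below all 3 SCR libraries, which 10.7% of all genes did, and for PARP12 alone they lay above. The members' count was 10 without the library gN1E A, the lowest with any 1 library left out, and 15 with the replicate letter as a block, under which 1.04% of all genes were called lower. IRF7, OAS1, MX1, PARP9, SAMD9, SAMD9L and HELZ2 were called with any 1 library left out.

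LP1 had 11 of 41 tested members called, all 11 lower in the gN1E libraries, with IFIT1, IFIT3, MX1 and XAF1 among them. Over all 23165 genes 1.43% were called and 0.777% were called lower. Below 0 lay 38 of the 41 members, with a median of -0.25, against 50.3% of all genes and a median of -0.00. With 10 reads in both groups, and so without IFI44L, 37 of 40 lay below 0 with a median of -0.22, against 49.1% and 0.00. The gN1E libraries lay below the SCR libraries without overlap for 19 members, which 8.93% of all genes did, and above them for 0. The number of members called depended on single libraries, as did the calls over all genes. It was 3 omitting SCR A (0.303% of all genes called lower), 3 omitting SCR B (0.149%) and 13 omitting SCR D (2.14%). Omitting gN1E A, B and D it was 5 (0.271%), 7 (0.351%) and 4 (0.568%). IFIT3 and MX1 were called with any 1 library left out.

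AMO1 had 2 of 40 tested members called, IRF7 and HELZ2, both lower in the gN1E libraries. Over all 22933 genes 2.06% were called and 0.419% were called lower. Of the 40 members, 35 lay below 0, with a median of -0.20, against 53.5% of all genes and a median of -0.02. Without OAS3 and MX2, which did not reach 10 reads in both groups, it was 34 of 38 and -0.20, against 50.8% and -0.00 over the genes that did. Without overlap, 10 members were lower in the gN1E libraries, which 8.29% of all genes were, and SAMD9 and ZNFX1 were higher, as was MX2, which passed the filter only through its gN1E libraries. The count was 0 omitting gN1E D, 1 omitting gN1E C and 1 omitting SCR D, and 4 with the replicate letter as a block, which added IRF9 and IFI35. Under that block 618 of all genes (2.69%) were called lower, against 96 (0.419%) without it. These are bulk RNA libraries, in which fewer cells carrying a transcript and less of it per cell cannot be told apart.

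**Figure D1:**
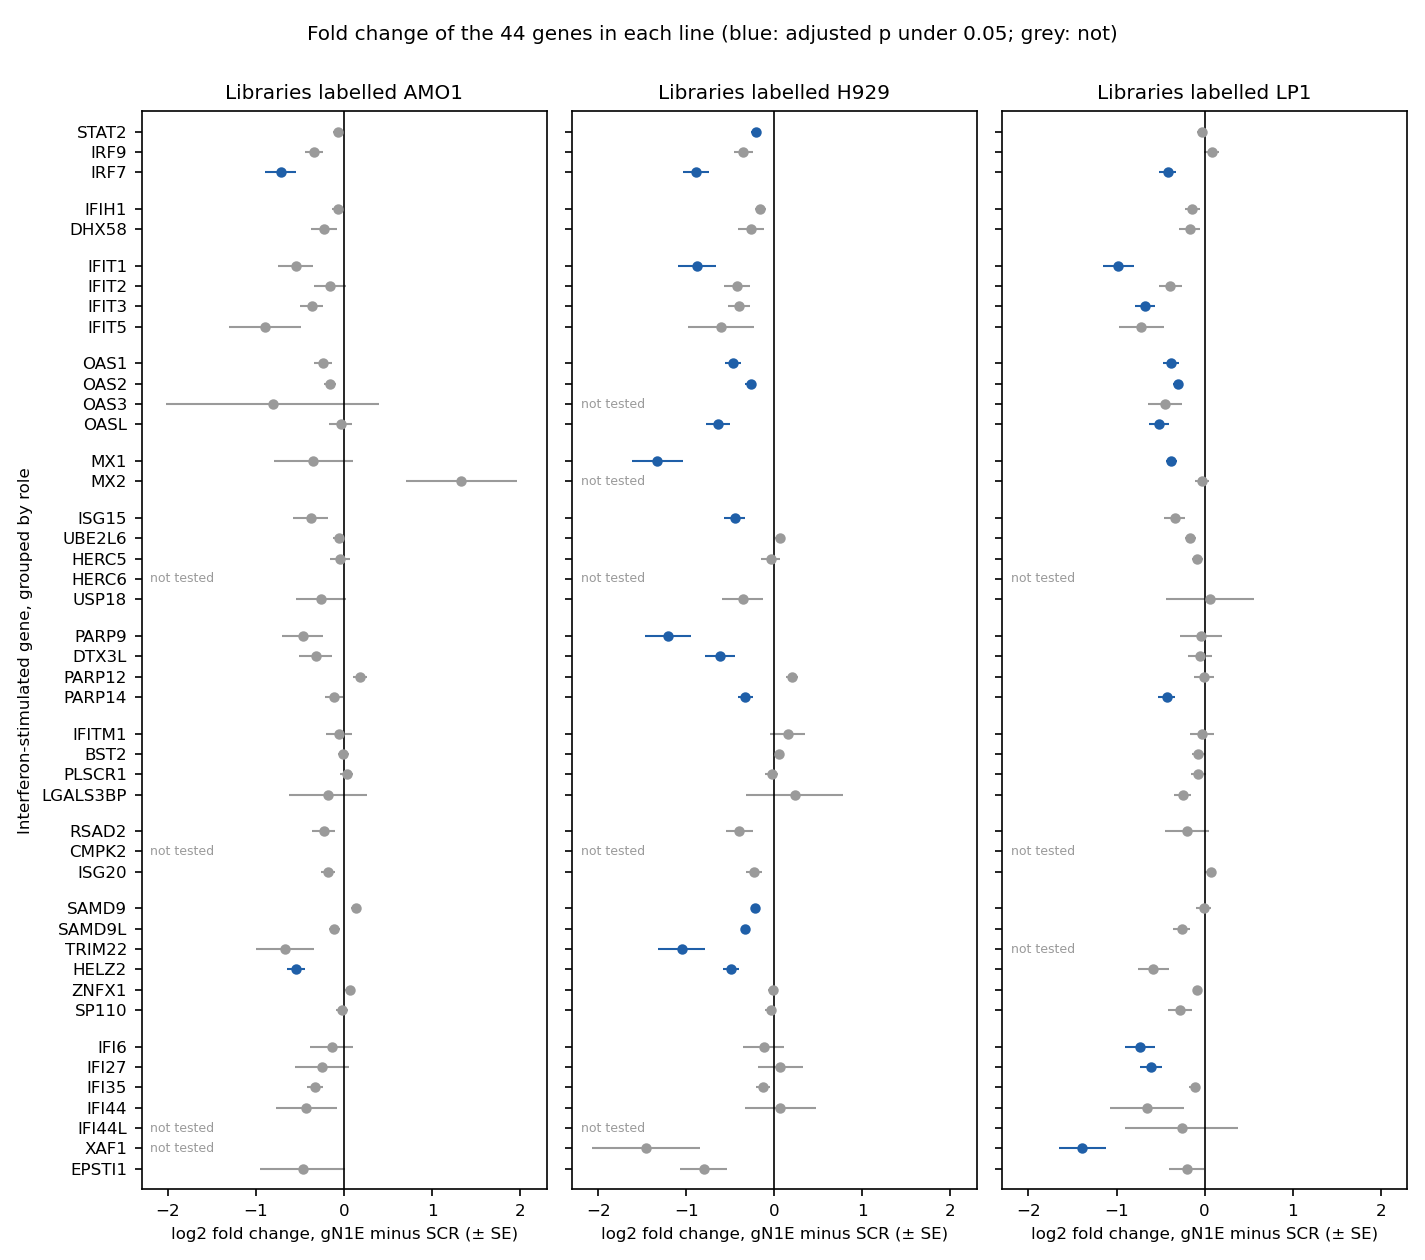
Log2 fold change (gN1E minus SCR, with SE bars) of each of the 44 genes in the libraries labelled AMO1, H929 and LP1, 3 libraries per group, grouped by role; blue points had an edgeR adjusted p under 0.05. The blue points, 2, 15 and 11 in number, all lie left of 0.

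Of 37 members tested in all 3 lines, 24 had a log2 fold change below 0 in each, while 18.7% of 19934 genes did. Called in at least 1 line were 19 of 42 members, all lower, while 2.36% of the 26436 genes tested in any line were called lower in at least 1. In 2 or more lines 8 members were called, while 0.235% of those genes were called lower: IRF7, IFIT1, OAS1, OAS2, OASL, MX1, PARP14 and HELZ2. IRF7 alone was called in all 3, where 6 of all genes (0.0227%) were called lower. The 7 members shared by the calls of H929 and LP1 are 7 of 15 and 7 of 11, and 0.129% of the 20912 genes tested in both were called lower in both. Both calls of AMO1 were also made in H929 (2 of 2 and 2 of 15), where 0.183% of 21854 genes were called lower in both. IRF7 was the 1 call of AMO1 also made in LP1 (1 of 2 and 1 of 11), where 7 of 20329 genes (0.0344%) were.

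Scaling changed the balance of higher and lower calls among all genes, which was 377 to 96 in AMO1, 870 to 416 in H929 and 152 to 180 in LP1 and, by library size only, 309 to 295, 556 to 743 and 229 to 130. By library size only 3, 17 and 11 members were called in AMO1, H929 and LP1, all lower. Of all genes, 1.29%, 3.16% and 0.561% were called lower by that scaling. Other fits ended some calls. Limma-voom did so for IRF7 in AMO1, DTX3L in H929, and IFI6, PARP14, IRF7 and XAF1 in LP1. The joint fit did so for HELZ2 in AMO1, for ISG15, PARP14, SAMD9, TRIM22 and HELZ2 in H929, and for IRF7 and MX1 in LP1. DESeq2 gave no adjusted p to PARP9, TRIM22 and MX1 in H929 or XAF1 in LP1. A filter of 10 reads in at least 3 libraries ended that of IFI6 in LP1.

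**Figure D2:**
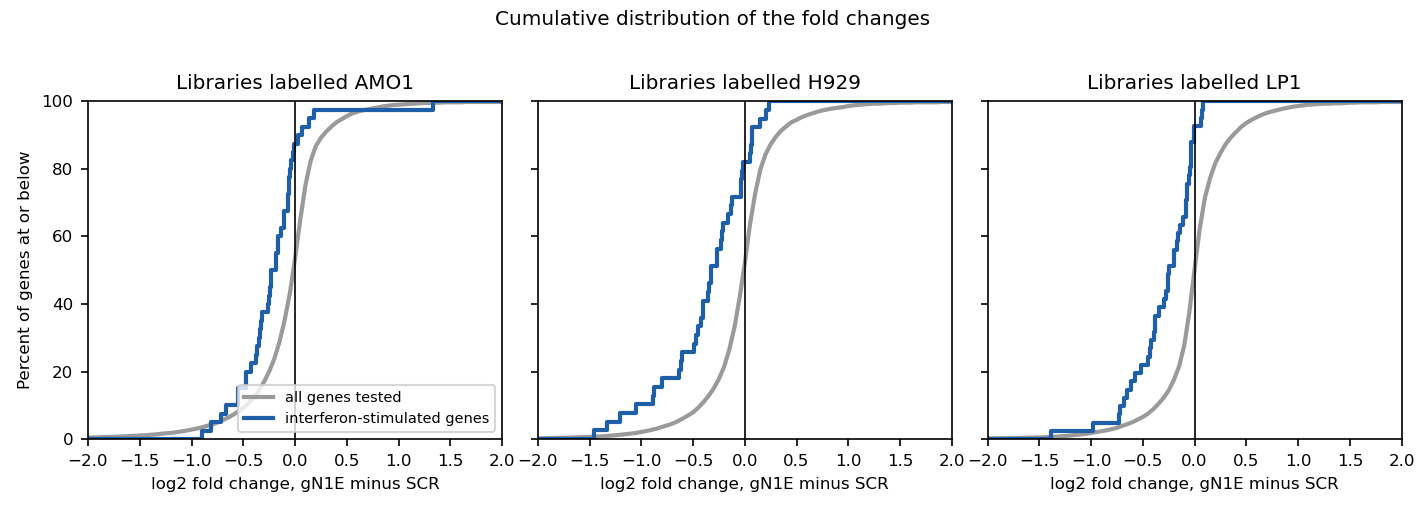
Cumulative percent of genes (y axis) at or below each log2 fold change (x axis, gN1E minus SCR) for the tested interferon-stimulated genes (blue) and all genes tested (grey) in each line. The blue curve reaches 0 on the x axis after most of its genes, with medians of -0.20, -0.33 and -0.25 in AMO1, H929 and LP1.

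The response element can be read directly in several members' promoters. In RefSeq promoter windows (GRCh38.p14, 250 bases before to 50 after a start), 35 of the 44 genes were found by symbol, and IRF7, DHX58, IFIT2, OAS2, OASL, MX2, USP18, TRIM22 and ZNFX1 were not. The core searched was GAAA, any 2 bases, GAAA on both strands, so that it reads TTTC, any 2 bases, TTTC on the other. At least 1 match was held by 24 of the 35 genes (68.6%; 95% exact interval 50.7% to 83.1%, counting error only), against 1195 of 27305 genes of the table (4.38%). By promoter it was 29 of 49 (59.2%) against 1255 of 35116 (3.57%). Allowing 1 or 2 bases between, 29 genes (82.9%) against 7.83% of all genes held a match. The gamma-activated site, TTC, any 3 bases, GAA, a different element, was held by 11 of the 35 (31.4%) against 9.38%. STAT2, IRF9, OAS1, UBE2L6, HERC6, CMPK2, SAMD9L, HELZ2, SP110, IFI35 and XAF1 had no match of the core in these windows, which says only that these letters are not there.

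The 6 windows printed here are of genes whose lower calls are described below, each written along its gene's strand, 5′ to 3′, with the matches of the core in capitals: IFIT1 (chr10:89392373-89392672, plus strand), the 2nd IFIT3 start (chr10:89332279-89332578, plus), MX1 (chr21:41420308-41420607, plus), ISG15 (chr1:1013247-1013546, plus), PARP14 (chr3:122680589-122680888, plus) and DTX3L (chr3:122564088-122564387, plus). In ISG15, 2 matches overlap and share a GAAA, and the DTX3L match is also the match of the PARP9 window, which runs from 122564251 to 122564550 on the minus strand.
IFIT1: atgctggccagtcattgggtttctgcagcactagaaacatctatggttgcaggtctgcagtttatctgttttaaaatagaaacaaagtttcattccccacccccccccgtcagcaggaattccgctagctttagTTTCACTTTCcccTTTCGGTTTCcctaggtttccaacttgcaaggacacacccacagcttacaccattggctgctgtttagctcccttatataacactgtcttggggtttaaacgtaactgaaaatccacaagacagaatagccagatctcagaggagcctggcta
IFIT3: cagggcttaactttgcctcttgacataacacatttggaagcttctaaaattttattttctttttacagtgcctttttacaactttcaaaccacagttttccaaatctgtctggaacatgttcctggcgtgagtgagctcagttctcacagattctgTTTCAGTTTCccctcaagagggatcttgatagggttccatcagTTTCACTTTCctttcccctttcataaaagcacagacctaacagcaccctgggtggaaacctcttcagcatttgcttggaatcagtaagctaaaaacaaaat
MX1: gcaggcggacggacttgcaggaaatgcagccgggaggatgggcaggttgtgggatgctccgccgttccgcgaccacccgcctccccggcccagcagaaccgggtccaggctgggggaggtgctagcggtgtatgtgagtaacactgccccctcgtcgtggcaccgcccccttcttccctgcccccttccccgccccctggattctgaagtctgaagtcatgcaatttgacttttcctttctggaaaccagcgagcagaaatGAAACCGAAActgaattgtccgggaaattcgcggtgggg
ISG15: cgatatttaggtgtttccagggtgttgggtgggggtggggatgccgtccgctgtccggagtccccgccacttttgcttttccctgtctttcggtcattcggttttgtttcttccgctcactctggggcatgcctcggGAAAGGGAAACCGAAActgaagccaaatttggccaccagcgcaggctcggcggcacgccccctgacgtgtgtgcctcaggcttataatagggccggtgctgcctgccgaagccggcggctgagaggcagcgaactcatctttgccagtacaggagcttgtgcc
PARP14: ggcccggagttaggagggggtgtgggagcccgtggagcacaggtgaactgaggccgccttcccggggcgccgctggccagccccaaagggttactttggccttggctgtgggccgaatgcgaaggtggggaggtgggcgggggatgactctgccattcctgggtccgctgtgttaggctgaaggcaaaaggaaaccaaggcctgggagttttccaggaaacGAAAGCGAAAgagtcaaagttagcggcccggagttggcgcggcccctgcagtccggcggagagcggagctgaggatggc
DTX3L: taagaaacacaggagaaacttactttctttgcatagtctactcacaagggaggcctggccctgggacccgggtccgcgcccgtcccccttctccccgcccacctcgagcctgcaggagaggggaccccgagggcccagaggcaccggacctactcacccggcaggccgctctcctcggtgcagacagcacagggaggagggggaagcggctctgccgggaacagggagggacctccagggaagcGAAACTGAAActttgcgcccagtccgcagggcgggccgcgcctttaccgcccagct

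Among the transcription factors, IRF7, which drives the transcription of interferon genes and is itself interferon-induced, was lower in every line. It measured 2.66, 1.98 and 2.02 CPM (gN1E) and 4.52, 3.27 and 3.37 CPM (SCR) under AMO1. Under H929 its values were 2.31, 2.45 and 3.35 CPM (gN1E) and 5.58, 5.01 and 4.42 CPM (SCR). Under LP1 they were 13.8, 13.6 and 13.1 CPM (gN1E) and 18.4, 20.6 and 15.1 CPM (SCR). The groups did not overlap in any line, and the LP1 libraries stood well above the rest under either label. IRF7 fell by 0.72 on the log2 scale in AMO1 (SE 0.179, edgeR adjusted p = 0.0369), by 0.89 in H929 (SE 0.145, edgeR adjusted p = 0.000151) and by 0.42 in LP1 (SE 0.0925, edgeR adjusted p = 0.0269). In AMO1 its edgeR adjusted p was 0.197 omitting SCR A, 0.0723 omitting SCR D, 0.163 omitting gN1E C and 0.208 omitting gN1E D. In LP1 edgeR gave it 0.12 omitting SCR A, 0.188 omitting SCR B, 0.0883 omitting gN1E A, 0.0887 omitting gN1E B and 0.12 omitting gN1E D.

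STAT2, a transcription factor of the type I interferon response, measured 109, 107 and 115 CPM (gN1E) and 134, 128 and 121 CPM (SCR) under H929. All gN1E libraries lay below the SCR libraries, and STAT2 fell by 0.21 (log2, SE 0.0501, edgeR adjusted p = 0.0107). Its edgeR adjusted p was 0.122 omitting SCR A, 0.0505 omitting gN1E A and 0.0903 omitting gN1E B. In AMO1 and LP1 its log2 fold changes were -0.07 and -0.03 with overlapping groups. IRF9, the subunit that binds DNA, lay without overlap at 8.12, 8.56 and 9.02 CPM (gN1E) against 10.1, 10.8 and 11.5 CPM (SCR) under AMO1. Its log2 fold change there was -0.34, with an edgeR adjusted p of 0.113, and 0.0274 when the letter was a block. In H929 IRF9 had -0.35 (edgeR adjusted p = 0.0597, 0.0109 omitting SCR B, 0.0308 by library size only, 0.0357 with no filter on low counts and 0.0494 in the joint fit) and in LP1 0.08. IRF9 shares 23.9% of its exon bases with another gene on its strand, so its counts are uncertain.

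The RNA sensors had 0 calls by edgeR, limma-voom and DESeq2 in each line, and 0, 1 and 0 unadjusted p under 0.05 by edgeR in AMO1, H929 and LP1. IFIH1, which encodes MDA5, the sensor of long double-stranded RNA, had log2 fold changes of -0.07, -0.16 and -0.14 in AMO1, H929 and LP1. DHX58, which encodes LGP2, a regulator of MDA5 and RIG-I signalling, had -0.23, -0.27 and -0.17. The lowest edgeR adjusted p of this pair was 0.142, for IFIH1 in H929, where its gN1E libraries lay below its SCR libraries.

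The IFIT proteins bind viral RNA and hold back its translation, and their genes form a cluster on chromosome 10. IFIT1, which binds RNA lacking the methylated cap of host messages, measured 1.16, 1.01 and 0.721 CPM (gN1E) and 1.72, 1.82 and 1.76 CPM (SCR) under H929. Under LP1 it measured 1.39, 1.54 and 1.09 CPM (gN1E) and 2.96, 2.74 and 2.21 CPM (SCR). IFIT1 was low in all gN1E libraries of both lines, and fell by 0.88 in H929 (log2, SE 0.213, edgeR adjusted p = 0.0106) and by 0.98 in LP1 (SE 0.176, edgeR adjusted p = 0.00594). The edgeR adjusted p was 0.0686 omitting gN1E C in H929 and 0.0515 omitting SCR A in LP1. IFIT3, the partner that stabilises IFIT1, measured 5.46, 4.4 and 4.66 CPM (gN1E) and 8.84, 7.46 and 6.97 CPM (SCR) under LP1. Its LP1 groups did not overlap, and it fell by 0.68 (log2, SE 0.114, edgeR adjusted p = 0.00323). In AMO1 and H929 the log2 fold changes of IFIT3 were -0.37 and -0.40 with overlapping groups. Its edgeR adjusted p there, 0.243 and 0.0583, was 0.0107 omitting SCR A in AMO1, and 0.0293 omitting SCR A and 0.0216 omitting gN1E B in H929. With no filter on low counts edgeR gave it 0.035 in AMO1 and 0.00569 in H929, where it also gave 0.0165 by library size only. DESeq2 called it in H929, at an adjusted p of 0.0458. IFIT1 in AMO1 had groups apart and -0.55, with an edgeR adjusted p of 0.23. IFIT2 (-0.16, -0.42 and -0.39) and IFIT5 (-0.90, -0.61 and -0.72) were below 0 in AMO1, H929 and LP1 and not called. All 4 family members lay below 0 in all 3 lines, which 18.7% of the genes tested in all 3 did. Lower without overlap were 1 in AMO1, 2 in H929 and 4 in LP1, against 8.29%, 10.7% and 8.93% of all genes. Reads from the most alike stretches of these paralogs may be split between them, and IFIT2 shares 12.1% of its exon bases with another gene on its strand.

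The OAS enzymes make 2′-5′ oligoadenylate from ATP when they meet double-stranded RNA, which switches on RNase L, and OAS1, OAS2 and OAS3 form a cluster on chromosome 12. OAS1 measured 7.79, 7.99 and 7.11 CPM (gN1E) and 11.2, 9.67 and 10.8 CPM (SCR) under H929. In LP1 it measured 11.4, 14.4 and 13.3 CPM (gN1E) and 17, 18 and 15.6 CPM (SCR). OAS1 groups did not overlap, and it fell by 0.47 in H929 (log2, SE 0.0931, edgeR adjusted p = 0.00167) and by 0.38 in LP1 (SE 0.0867, edgeR adjusted p = 0.0301). The LP1 call of OAS1 was lost omitting SCR A (edgeR adjusted p = 0.122), SCR B (0.177), gN1E A (0.193) and gN1E D (0.0696). OAS2, a larger enzyme of the family, with OAS3 between it and OAS1, measured 25.5, 29.9 and 27.6 CPM (gN1E) and 32.6, 34.7 and 33 CPM (SCR) under H929. In LP1 it measured 76.4, 79.7 and 72.9 CPM (gN1E) and 97.6, 97.2 and 86.2 CPM (SCR). OAS2 was thus lower in all 6 gN1E libraries of these lines, and fell by 0.27 in H929 (log2, SE 0.0629, edgeR adjusted p = 0.00685) and by 0.30 in LP1 (SE 0.0556, edgeR adjusted p = 0.00823). Its edgeR adjusted p was 0.0648 omitting gN1E A in H929, 0.0581 omitting SCR A in LP1 and 0.0698 omitting SCR B in LP1.

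OASL, a family member that lacks the synthetase activity and enhances RIG-I signalling, lies apart on the same chromosome. It measured 2.61, 2.51 and 2.8 CPM (gN1E) and 4.53, 3.66 and 4.12 CPM (SCR) under H929, and 7.94, 5.97 and 6.5 CPM (gN1E) and 11, 9.64 and 8.69 CPM (SCR) under LP1. No gN1E library reached an SCR library in either line, and OASL fell by 0.64 in H929 (log2, SE 0.138, edgeR adjusted p = 0.00401) and by 0.52 in LP1 (SE 0.111, edgeR adjusted p = 0.0203). The edgeR adjusted p of OASL was 0.0577 omitting SCR A in H929, and in LP1 0.138 omitting SCR A, 0.0711 omitting SCR B, 0.105 omitting gN1E B and 0.0956 omitting gN1E D. In AMO1 the log2 fold changes of OAS1, OAS2 and OASL were -0.24, -0.16 and -0.04, the first 2 without overlap, and the lowest edgeR adjusted p of the 3 was 0.32. OAS3 was not tested in H929 and had -0.45 in LP1 with overlapping groups. In AMO1 it had 1, 0 and 3 reads (gN1E) and 1, 11 and 1 reads (SCR), so it passed only through the SCR group and its direction is not read.

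MX1 and MX2, neighbours on chromosome 21, encode dynamin-like GTPases that trap viral nucleocapsids, MxA and MxB. MX1 was scarce under H929, at 0.404, 0.661 and 0.385 CPM (gN1E) and 0.975, 1.06 and 1.65 CPM (SCR). Under LP1 it was abundant, at 53.4, 60 and 55.9 CPM (gN1E) and 74.4, 79.6 and 66.8 CPM (SCR). In both lines the gN1E libraries were the low ones without overlap. MX1 fell by 1.33 in H929 (log2, SE 0.288, edgeR adjusted p = 0.00393) and by 0.38 in LP1 (SE 0.0623, edgeR adjusted p = 0.0028). In AMO1 it had a log2 fold change of -0.35 with overlapping groups. MX2 in AMO1 was near the filter, with 16, 8 and 6 reads (gN1E) against 7, 3 and 9 (SCR), so that it passed only through the gN1E group and its direction is not read. It measured 0.332, 0.283 and 0.205 CPM (gN1E) against 0.124, 0.0437 and 0.168 CPM (SCR), a log2 fold change of 1.33 with an edgeR adjusted p of 0.403. In LP1, at about 20 CPM, MX2 had a log2 fold change of -0.03.

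**Figure D3:**
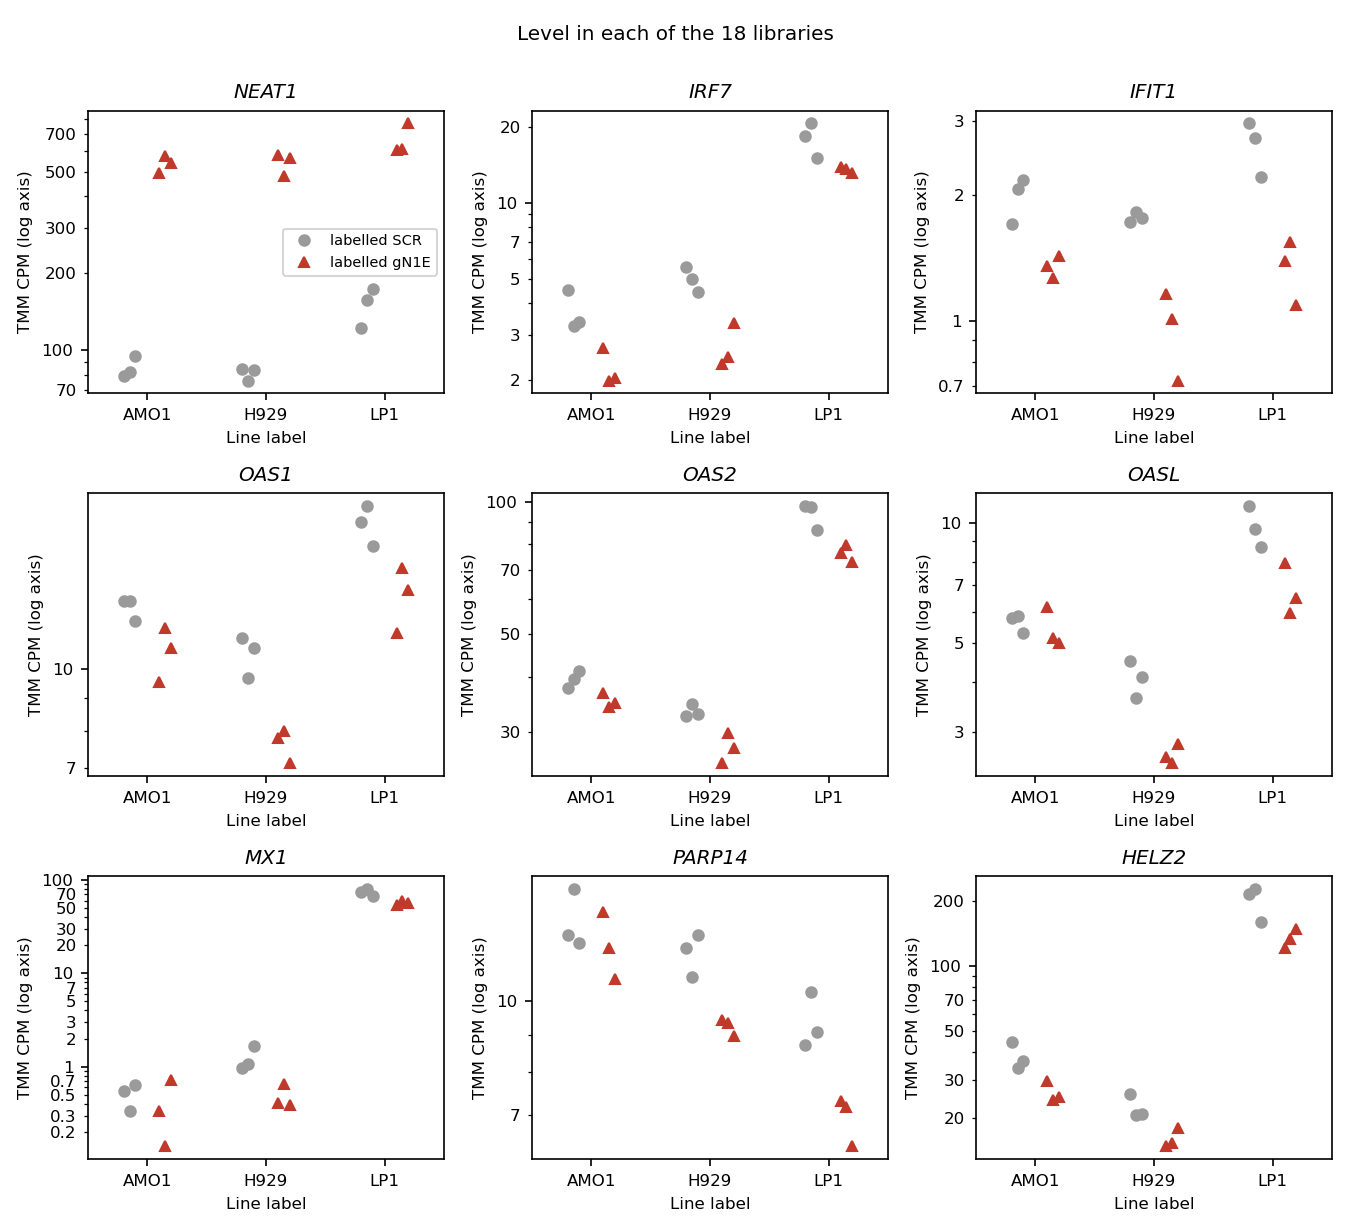
CPM (TMM-scaled, log axis) of NEAT1 and the 8 interferon-stimulated genes called in 2 or more lines, in each of the 18 libraries by line label (x axis); grey circles are libraries labelled SCR and red triangles those labelled gN1E. NEAT1 is high in all libraries labelled gN1E, and IRF7 is low in them in each of the 3 lines.

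ISG15 is a ubiquitin-like protein that is joined to other proteins by UBE2L6 and HERC5 and removed by USP18. It measured 3.71, 3.85 and 3.67 CPM (gN1E) and 4.77, 5.26 and 5.29 CPM (SCR) under H929. The H929 groups did not overlap, and ISG15 fell by 0.45 (log2, SE 0.119, edgeR adjusted p = 0.0231). The call was lost with most libraries left out, where the edgeR adjusted p was 0.0702 omitting SCR B, 0.0669 omitting SCR C, 0.0658 omitting gN1E A, 0.0653 omitting gN1E B and 0.0635 omitting gN1E C. In AMO1 and LP1 its log2 fold changes were -0.38 and -0.34 with overlapping groups, and in LP1 its edgeR adjusted p was 0.00831 omitting SCR D and 0.0228 with no filter on low counts. The enzymes around it were not called in any line. UBE2L6 had -0.06, 0.06 and -0.16 in AMO1, H929 and LP1, HERC5 had -0.05, -0.04 and -0.08, and USP18, which was scarce, had -0.26, -0.36 and 0.06.

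PARP9, DTX3L and PARP14 lie together on chromosome 3, PARP9 and DTX3L head to head. DTX3L is a ubiquitin ligase that works as a complex with PARP9, and PARP14 is a mono-ADP-ribosyltransferase. Under H929, PARP9 measured 0.955, 0.583 and 0.469 CPM (gN1E) and 1.26, 1.47 and 1.96 CPM (SCR). DTX3L measured 2, 1.71 and 2.4 CPM (gN1E) and 2.51, 3.39 and 3.56 CPM (SCR). PARP14 measured 9.42, 9.35 and 8.97 CPM (gN1E) and 11.8, 10.8 and 12.3 CPM (SCR). All 3 were low in every gN1E library of H929. PARP9 fell by 1.21 (log2, SE 0.261, edgeR adjusted p = 0.00402), DTX3L by 0.62 (SE 0.168, edgeR adjusted p = 0.0264) and PARP14 by 0.33 (SE 0.0859, edgeR adjusted p = 0.0189). DTX3L had an edgeR adjusted p of 0.0805 omitting SCR B, 0.112 omitting SCR C, 0.0723 omitting gN1E A and 0.176 omitting gN1E B. For PARP14 edgeR gave 0.0931 omitting SCR A, 0.0800 omitting SCR C, 0.0723 omitting gN1E B and 0.0631 omitting gN1E C. Under LP1, PARP14 measured 7.32, 7.18 and 6.35 CPM (gN1E) and 8.73, 10.3 and 9.07 CPM (SCR), again without overlap, and it fell by 0.43 (log2, SE 0.0975, edgeR adjusted p = 0.0269). With the letter as a block the edgeR adjusted p was 0.051, and with libraries left out 0.212 omitting SCR B, 0.0539 omitting gN1E A, 0.0648 omitting gN1E B and 0.11 omitting gN1E D.

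PARP9 and DTX3L were at -0.04 and -0.05 in LP1, and at -0.47 and -0.32 in AMO1, with no call. PARP12, a mono-ADP-ribosyltransferase encoded on chromosome 7, did not share the lower values of the other 3. It had log2 fold changes of 0.18 in AMO1, with overlap, and 0.20 in H929, where its gN1E libraries lay above its SCR libraries (edgeR adjusted p = 0.0779). In LP1 it lay at -0.01, and at 0.021 by library size only.

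The membrane and secreted proteins had 0 calls by edgeR in any line. BST2, or tetherin, which holds budding virions at the cell surface, had log2 fold changes of -0.01, 0.05 and -0.07 in AMO1, H929 and LP1. IFITM1, which blocks membrane fusion of viruses, had -0.06, 0.15 and -0.03, and PLSCR1, a phospholipid scramblase with antiviral activity, 0.03, -0.03 and -0.07. LGALS3BP, a secreted glycoprotein that binds galectins, had -0.18, 0.23 and -0.25, the last without overlap. By library size only, BST2 in H929, PLSCR1 in AMO1 and IFITM1 in LP1 changed sign, all within 0.05 of 0. The 0 calls compare with 0 by limma-voom and 0 by DESeq2, and no gene of this group had an unadjusted p under 0.05 in AMO1 or H929, while LGALS3BP did in LP1 (0.0165). IFITM1 shares 21.1% of its exon bases with another gene on its strand.

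Among the enzymes that act on nucleotides and RNA, RSAD2, or viperin, which makes a chain-terminating nucleotide, had log2 fold changes of -0.23, -0.40 and -0.20 in AMO1, H929 and LP1. Only in H929 were its groups apart. ISG20, an exonuclease that degrades RNA, had -0.18, -0.23 and 0.07. Neither was called from all libraries by edgeR with the filter, limma-voom or DESeq2, with an unadjusted edgeR p under 0.05 for ISG20 in AMO1 and for both in H929, and in H929 the edgeR adjusted p of ISG20, 0.236, was 0.0207 omitting SCR C, 0.0289 omitting gN1E C and 0.0147 with no filter on low counts. CMPK2, the neighbour of RSAD2, had too few reads to test.

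Of the other restriction factors, HELZ2, a helicase and nuclear receptor coactivator, was lower in AMO1 and H929. It measured 29.4, 24.2 and 24.9 CPM (gN1E) and 44.8, 34 and 36.4 CPM (SCR) under AMO1. Under H929 it measured 14.8, 15.3 and 17.9 CPM (gN1E) and 25.7, 20.5 and 20.9 CPM (SCR). HELZ2 lay lower in each gN1E library, and fell by 0.55 in AMO1 (log2, SE 0.102, edgeR adjusted p = 0.00854) and by 0.49 in H929 (SE 0.092, edgeR adjusted p = 0.00316). The AMO1 call was lost omitting gN1E D (edgeR adjusted p = 0.076). Under LP1 it measured 121, 133 and 148 CPM (gN1E) and 215, 226 and 159 CPM (SCR). These did not overlap either, and the log2 fold change of -0.58 (SE 0.171) had an edgeR adjusted p of 0.284, and of 0.000493 omitting SCR D, the lowest of the 3 SCR libraries. By limma-voom and DESeq2 HELZ2 was called in LP1, at adjusted p of 0.0163 and 0.0278.

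SAMD9 and its neighbour SAMD9L on chromosome 7 restrict poxviruses and growth, and TRIM22 is a ubiquitin ligase that restricts several viruses. SAMD9 measured 243, 230 and 243 CPM (gN1E) and 277, 280.1 and 275 CPM (SCR) under H929. SAMD9L measured 169.8, 156 and 154 CPM (gN1E) and 196, 200 and 208 CPM (SCR) there, and TRIM22 0.404, 0.622 and 0.737 CPM (gN1E) and 1.05, 1.15 and 1.51 CPM (SCR). For all 3 the gN1E libraries of H929 were the low ones, without overlap. SAMD9 fell by 0.22 (log2, SE 0.046, edgeR adjusted p = 0.00317), SAMD9L by 0.33 (SE 0.0489, edgeR adjusted p = 3.19e-05, the lowest of any member) and TRIM22 by 1.05 (SE 0.267, edgeR adjusted p = 0.0161). TRIM22 had an edgeR adjusted p of 0.083 omitting SCR C, 0.0912 omitting gN1E A and 0.0606 omitting gN1E B. Under AMO1, SAMD9 went the other way without overlap, at 303, 308 and 333 CPM (gN1E) and 272, 302 and 286 CPM (SCR), with a log2 fold change of 0.13 and an edgeR adjusted p of 0.328. In LP1 SAMD9 lay at -0.01, and at 0.017 by library size only. SAMD9L had -0.11 in AMO1 and -0.26 in LP1, and TRIM22 -0.67 in AMO1 and too few reads to test in LP1. ZNFX1, a helicase-like RNA sensor (0.07, -0.02 and -0.08), and SP110, a nuclear body protein (-0.02, -0.04 and -0.28), were not called in AMO1, H929 or LP1. SAMD9 and SAMD9L are paralogs, so reads of their most alike stretches are uncertain.

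IFI6, IFI27 and XAF1 were lower in LP1. IFI6 and IFI27 encode small mitochondrial or endoplasmic reticulum proteins of 1 family, and XAF1 binds the apoptosis inhibitor XIAP. IFI6 measured 2.84, 3.6 and 3 CPM (gN1E) and 5.57, 6.24 and 3.67 CPM (SCR). IFI27 measured 5.41, 7.11 and 5.84 CPM (gN1E) and 9.26, 10.8 and 7.79 CPM (SCR). XAF1 measured 0.77, 0.827 and 0.488 CPM (gN1E) and 1.97, 2.38 and 1.13 CPM (SCR). In each of the 3 the gN1E libraries were low without overlap, and SCR D was the lowest SCR library. IFI6 fell by 0.73 (log2, SE 0.17, edgeR adjusted p = 0.0476), IFI27 by 0.61 (SE 0.123, edgeR adjusted p = 0.0155) and XAF1 by 1.39 (SE 0.266, edgeR adjusted p = 0.0118). For IFI6 edgeR gave 0.186 omitting SCR A, 0.201 omitting SCR B, 0.237 omitting gN1E A, 0.0632 omitting gN1E B and 0.209 omitting gN1E D. For IFI27 edgeR gave 0.0688 omitting SCR A, 0.0929 omitting SCR B, 0.0896 omitting gN1E A and 0.0955 omitting gN1E D. For XAF1 edgeR gave 0.0606 omitting SCR A, 0.062 omitting SCR B, 0.0513 omitting gN1E A and 0.0632 omitting gN1E D. IFI6 shares 23.1% of its exon bases with LINC02574 on its strand.

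In H929 the values of IFI6 and IFI27 overlapped, with log2 fold changes of -0.12 and 0.07, and XAF1, with 8, 5 and 3 reads (gN1E) and 19, 7 and 12 reads (SCR), passed only through the SCR group, so its direction is not read. IFI35, a leucine zipper protein, measured 13.1, 13 and 12.3 CPM (gN1E) and 16.6, 15.2 and 16.4 CPM (SCR) under AMO1. Its groups did not overlap, and its log2 fold change of -0.33 had an edgeR adjusted p of 0.0587, of 0.0435 omitting SCR C and of 0.00982 with the replicate letter as a block. In AMO1 edgeR also gave IFI35 0.0219 by library size only, 0.0223 with no filter on low counts and 0.00914 in the joint fit. DESeq2 called it there, at an adjusted p of 0.0264. EPSTI1, named for epithelial-stromal interaction, had -0.80 in H929 with groups apart, an edgeR adjusted p of 0.0805, and 0.0275 omitting SCR B. IFI44, a GTP-binding protein, had -0.43, 0.07 and -0.65 in AMO1, H929 and LP1. IFI44L, its neighbour on chromosome 1, reached 10 reads in 1 library, of LP1 and labelled SCR, so its direction is not read.

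A joint fit of all 18 libraries tested, as interactions, whether the lines differed in these effects. By edgeR, 0 of 42 members were called for AMO1 minus H929 (0% of all 26436 genes), 0 for AMO1 minus LP1 (0.741%) and 0 for H929 minus LP1 (0.874%). At an unadjusted edgeR p under 0.05 lay 3, 6 and 10 of the 42 members, and 1771, 2820 and 2664 of the 26436 genes. The lowest edgeR adjusted p of a member was 0.621, 0.151 and 0.163. By limma-voom 0 were called in each contrast, and by DESeq2 0, 1 and 0, the 1 being MX2. MX2 had 16, 8 and 6 reads (gN1E) against 7, 3 and 9 (SCR) in AMO1, so the direction of this call is not read. Without H929 gN1E A, 1 member was called by edgeR for H929 minus LP1, PARP9, lower in H929. A call in 1 line and not in another is therefore not read as a difference between the lines in that gene. Nor do 0 calls show that the effects were alike, since for AMO1 minus H929 0% of all genes were called.

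The level of the genes, over both gapmeR labels, did differ between lines. For AMO1 minus H929 26 of 42 members were called, 21 of them higher in AMO1, where 44.4% of all genes were called. For AMO1 minus LP1 39 of 42 were called, 15 higher and 24 lower in AMO1, where 75.9% of all genes were called. For H929 minus LP1 39 were called, 12 higher and 27 lower in H929, against 74.6%. The examples that follow were named after their values were seen, with CPM scaled over all 18 libraries. MX2 had 0.185 ± 0.101 CPM in AMO1, 0.1 ± 0.0535 CPM in H929 and 23.4 ± 2.04 CPM in LP1 (SD, n = 6 libraries), and MX1 0.434 ± 0.209, 0.816 ± 0.454 and 71 ± 12.2 CPM. LGALS3BP was likewise high in LP1, at 7.27 ± 0.765 CPM against 0.331 ± 0.113 CPM in AMO1 and 0.187 ± 0.0596 CPM in H929. SAMD9 was the reverse, at 289 ± 19.6 CPM in AMO1, 246 ± 19.7 CPM in H929 and 25.4 ± 2.32 CPM in LP1, and SP110 had 35.2 ± 1.21, 31 ± 1.38 and 3.52 ± 0.506 CPM. The difference in level of AMO1 minus LP1 was -7.11 for MX2, -7.37 for MX1, -4.46 for LGALS3BP, 3.51 for SAMD9, 3.67 for SAMD9L and 3.33 for SP110 on the log2 scale. Between AMO1 and H929 the widest among the members tested in both lines was IFITM1 (2.03). XAF1 had -2.14 but is not ranked, with 1, 0 and 1 reads (gN1E) and 4, 3 and 4 reads (SCR) in AMO1. By library size only the median of all genes moved from 0.022 to 0.202 for AMO1 minus LP1, where 36 members were called, and from 0.053 to 0.243 for H929 minus LP1, where 39 were, so differences are given relative to TMM.

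**Figure D4:**
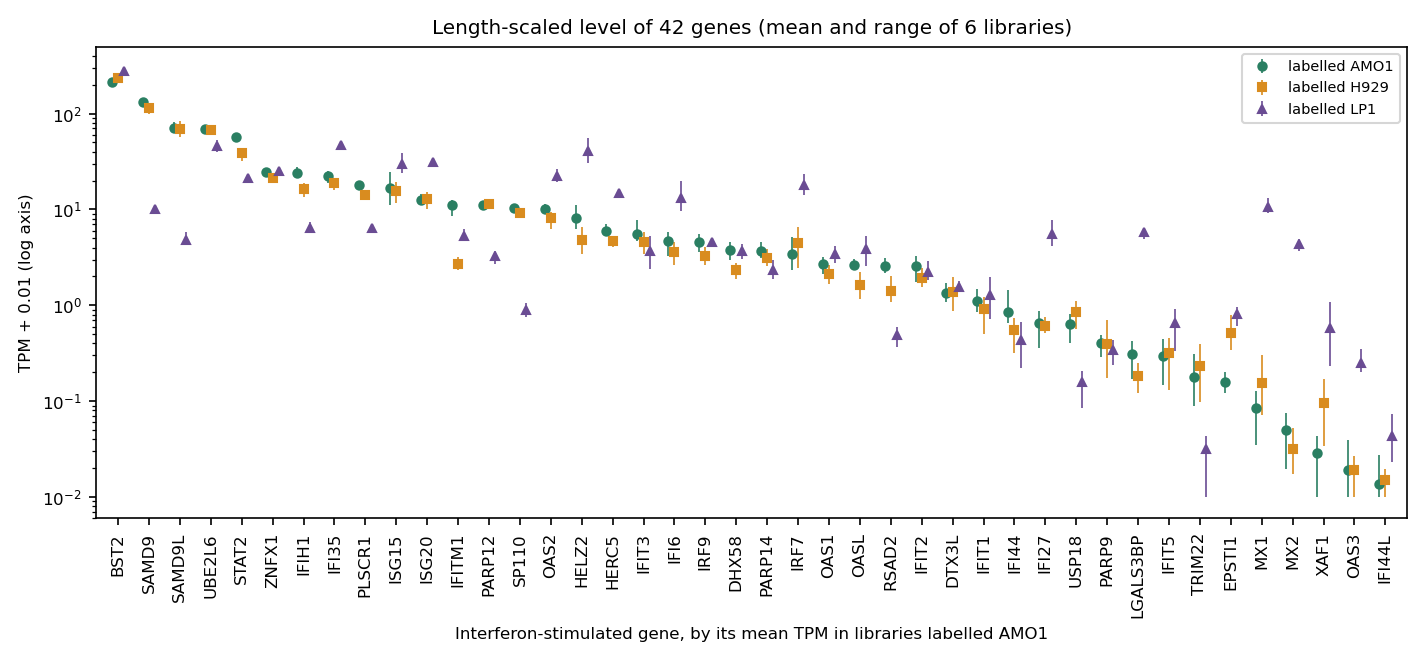
Level per transcript length (TPM plus 0.01, log axis) of the 42 interferon-stimulated genes that passed 10 reads, ordered by AMO1; points are means and bars ranges of 6 libraries per line label. BST2 leads in every line, SAMD9, SAMD9L and SP110 are low in LP1, and MX1, MX2 and LGALS3BP are high in LP1.

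Per transcript length, as length-scaled TPM values over all 6 libraries of a line, BST2 led in each line, with a level of 212 ± 7.67 TPM in AMO1, 233 ± 9.64 TPM in H929 and 276 ± 15.7 TPM in LP1 (SD, n = 6). In AMO1 it was followed by SAMD9 (133 TPM), SAMD9L (70.5 TPM), UBE2L6 (69.5 TPM) and STAT2 (57.3 TPM), and the same order held in H929, at 114, 68.3, 66.7 and 38.6 TPM. SAMD9L and UBE2L6 changed places with the label. In H929 they measured 58.9 ± 1.71 and 66.6 ± 4.74 TPM (gN1E) and 77.8 ± 4.61 and 66.7 ± 1.46 TPM (SCR), without overlap under either label (SD, n = 3). In AMO1 they had 67.1 ± 2.83 and 67.4 ± 2.18 TPM (gN1E) and 73.9 ± 9.16 and 71.5 ± 2.24 TPM (SCR), within their spread. In LP1 the next were IFI35 (47 TPM), UBE2L6 (46.3 TPM), HELZ2 (40.9 TPM) and ISG20 (31.2 TPM), in an order that also depended on the label. HELZ2 had 32.9 ± 3.65 TPM (gN1E), below IFI35 at 45.4 ± 2.27 TPM and UBE2L6 at 43.9 ± 3.43 TPM, and 49 ± 10.2 TPM (SCR), level with 48.7 ± 4.78 and 48.7 ± 4.75 TPM. ISG15 lay below ISG20 at 26.4 ± 3.26 against 32.1 ± 2.06 TPM (gN1E), and at 33.3 ± 7.27 against 30.4 ± 1.41 TPM (SCR) within their spread, so the 5th place in LP1 is not settled. Pooled over labels, the leading 5 made up 71.4%, 74.9% and 65% of the members' summed TPM in AMO1, H929 and LP1. In H929, SAMD9, SAMD9L and STAT2, among its leading 5, were called lower.

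The summed CPM of the 42 members was 1134, 1119 and 1150.5 CPM (gN1E) and 1142, 1183 and 1177 CPM (SCR) in AMO1. In H929 it was 935, 908 and 910.2 CPM (gN1E) and 1041, 1048 and 1024 CPM (SCR), and in LP1 888, 963 and 930.1 CPM (gN1E) and 1135, 1167 and 1017 CPM (SCR). The gN1E sum was 97.2% of the SCR sum in AMO1, with overlap, 88.4% in H929 and 83.8% in LP1, both without overlap. By total counts the AMO1 share was 94.9%, without overlap. As summed TPM these shares were 95.2%, 88.7% and 89.6%. A sum weighs abundant members most, in CPM among them SAMD9, SAMD9L and STAT2 in H929 and HELZ2 in LP1. No test is given for these sums, since the members were chosen with results known.

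Other genes of the pathway were read from lists. The ligands were all but absent: of 21 interferon genes, IFNG alone passed in AMO1 and H929, at 2.28 and 1.89 TPM, 0 of 21 passed in LP1, and 14, 14 and 15 of them had 0 reads in every library of AMO1, H929 and LP1. IFNG had log2 fold changes of -0.70 in AMO1, with overlap, and -0.87 in H929, without overlap, and edgeR adjusted p of 0.328 and 0.0786. The summed TPM of the ligands was 1.28, 1.73 and 2.42 (gN1E) and 2.26, 3.63 and 3.66 (SCR) in AMO1, with overlap. In H929 it was 1.56, 0.811 and 1.72 (gN1E) and 2.88, 2.66 and 2.62 (SCR). In LP1, where every ligand had under 10 reads, it was 0.0444, 0.141 and 0.308 (gN1E) and 0.509, 0.585 and 0.423 (SCR). The sums of H929 and LP1 were lower in the gN1E libraries without overlap, and the part of the ligands was not tested. IFNGR1, the ligand-binding chain of the interferon gamma receptor, fell by 0.29 in H929 (SE 0.0714, edgeR adjusted p = 0.0137), and had 0.132 omitting SCR A and 0.0516 omitting gN1E C. TYK2, the kinase of the type I receptor, fell by 0.29 in AMO1 (SE 0.0659, edgeR adjusted p = 0.0197), with 0.0792 omitting SCR A, 0.127 omitting SCR D, 0.131 omitting gN1E C and 0.187 omitting gN1E D. Limma-voom ended the call of TYK2, at an adjusted p of 0.0533. By level, IFNGR2 led the receptor chains and kinases in AMO1 (94 TPM) and H929 (77.6 TPM), and TYK2 in LP1 (64.9 TPM).

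Of 20 sensors and adaptors, 18 were tested in AMO1 with 0 calls by edgeR, limma-voom and DESeq2 (9 at an unadjusted edgeR p under 0.05), 18 in H929 with 2 lower and 2 higher, and 17 in LP1 with 1 higher. Among all genes, 2.06% were called in AMO1, 5.47% in H929 and 1.43% in LP1, in either direction. RIGI, the sensor of short RNA with a 5′ triphosphate, was scarce, at means of 0.239 and 0.324 TPM (gN1E, SCR) in AMO1. Its log2 fold changes were -0.42, -0.24 and -0.16 in AMO1, H929 and LP1, with overlapping groups. In H929 TLR7, a sensor of single-stranded RNA, fell by 0.21 (SE 0.0472, edgeR adjusted p = 0.00699, and 0.0581 omitting SCR B), and ZBP1, a sensor of Z-form nucleic acid, by 0.31 (SE 0.0749, edgeR adjusted p = 0.0109). ZBP1 had an edgeR adjusted p of 0.139 omitting SCR A and 0.105 omitting gN1E B. TRIM25, the ubiquitin ligase that activates RIG-I, rose by 0.18 in H929 (SE 0.0478, edgeR adjusted p = 0.0199), with 0.124 omitting SCR A, 0.0707 omitting SCR B, 0.147 omitting gN1E B and 0.0529 omitting gN1E C. TRAF3, an adaptor below these sensors, rose by 0.17 in H929 (SE 0.0493, edgeR adjusted p = 0.0369) and 0.25 in LP1 (SE 0.0602, edgeR adjusted p = 0.0347). TRAF3 had in H929 an edgeR adjusted p of 0.109 omitting SCR A, 0.101 omitting SCR B, 0.0566 omitting SCR C, 0.162 omitting gN1E B and 0.121 omitting gN1E C. In LP1 edgeR gave it 0.129 omitting SCR A, 0.0531 omitting SCR B, 0.057 omitting SCR D, 0.122 omitting gN1E A, 0.0859 omitting gN1E B and 0.107 omitting gN1E D. Limma-voom and the replicate block ended the calls of TRAF3 in both lines, library size only those of TRAF3 and TRIM25 in H929, and the joint fit those of TRAF3 and TLR7 in H929. TLR7 led this list in AMO1 (109.5 TPM) and MAVS in H929 (91.2 TPM) and LP1 (129 TPM).

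The inhibitors of the pathway included 1 call in H929 and 1 in LP1 among 12, and 0 in AMO1 by edgeR, limma-voom and DESeq2 (1 at an unadjusted edgeR p under 0.05). Of all genes, 5.47% were called in H929, 1.43% in LP1 and 2.06% in AMO1, so these counts are not read as a result about the list. SOCS3, a suppressor of cytokine signalling, measured 8.38, 8.47 and 8.12 CPM (gN1E) and 5.91, 5.69 and 5.2 CPM (SCR) under LP1. It was high in each gN1E library and rose by 0.57 (log2, SE 0.0958, edgeR adjusted p = 0.00323), also with any 1 library left out, but the joint fit by edgeR gave an adjusted p of 0.229. SOCS1, its relative, fell by 0.98 in H929 at about 1 CPM (SE 0.288, edgeR adjusted p = 0.0473), with 0.239 omitting SCR A, 0.155 omitting SCR C, 0.186 omitting gN1E A and 0.133 omitting gN1E B. Limma-voom ended this call, at an adjusted p of 0.0927, DESeq2 gave no adjusted p, and edgeR gave 0.0821 with the replicate block, 0.0527 in the joint fit and 0.053 with a filter of 10 reads in at least 3 libraries. PTPN6 led the list in AMO1 (203 TPM) and H929 (111 TPM) and PTPN1 in LP1 (76.7 TPM). The genes that clear stray nucleic acid, 9 of 10 tested, had 0 calls by edgeR, limma-voom and DESeq2 in each line (1, 2 and 1 at an unadjusted edgeR p under 0.05), with ADAR, which edits double-stranded RNA, leading at 223, 242 and 292 TPM.

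Interferon-induced genes outside the 44, a list of 37, had 27 of 33 below 0 in AMO1 with 1 called lower. Of all genes tested there, 53.5% were below 0 and 0.419% were called lower. In H929 29 of 33 were below 0, with 3 called lower and 1 higher. Of all genes there, 52.1% were below 0, 1.77% were called lower and 5.47% were called in either direction. In LP1 25 of 31 were below 0, with 1 called lower, against 50.3% and 0.777% of all genes. The medians of the list were -0.07, -0.11 and -0.13, nearer 0 than those of the 44. Over genes with 10 reads in both groups, 27 of 32, 29 of 33 and 23 of 28 were below 0. Their medians were -0.07, -0.11 and -0.11, and 50.8%, 52.3% and 49.1% of all such genes were below 0. In H929 IRF1, a factor induced by interferon gamma, fell by 0.31 (SE 0.0656, edgeR adjusted p = 0.00335), and IFI16, a nuclear DNA sensor, by 0.23 (SE 0.0476, edgeR adjusted p = 0.00259), both also with any 1 library left out. GBP4, an interferon gamma-induced GTPase at about 1 CPM, fell by 0.88 in H929 (SE 0.256, edgeR adjusted p = 0.0395), and had 0.11 omitting SCR A, 0.0532 omitting SCR B, 0.105 omitting SCR C, 0.184 omitting gN1E A and 0.091 omitting gN1E B. PML, the organiser of PML bodies, rose by 0.18 in H929 (SE 0.0523, edgeR adjusted p = 0.0394), but had 0.0596 omitting SCR A, 0.0575 omitting SCR B, 0.145 omitting SCR C, 0.0524 omitting gN1E A, 0.0945 omitting gN1E B and 0.142 omitting gN1E C. PARP10, a mono-ADP-ribosyltransferase, fell by 0.41 in AMO1 (SE 0.0974, edgeR adjusted p = 0.0300), with 0.152 omitting SCR A, 0.0805 omitting SCR D, 0.112 omitting gN1E C and 0.222 omitting gN1E D. Limma-voom ended the calls of PARP10 in AMO1, at an adjusted p of 0.101, and of GBP4 and PML in H929, as did the replicate block and the joint fit for GBP4 and PML. DESeq2 gave no adjusted p to GBP4, and library size only ended the call of PML. APOL6, an apolipoprotein L, fell by 0.24 in LP1 (SE 0.0447, edgeR adjusted p = 0.00711, and 0.056 omitting SCR B). LY6E led the list in AMO1 (128 TPM) and H929 (135 TPM) and IFI16 in LP1 (169 TPM).

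The labelled cell type was checked against its markers, and all 10 plasma cell markers passed in each line. SDC1, or CD138, led them in AMO1 (9282 TPM) and H929 (11285 TPM), and JCHAIN, which joins immunoglobulin units, in LP1 (7416 TPM). Their summed TPM ran from 17418 to 20789 in AMO1, from 20276 to 23933 in H929 and from 12976 to 15131 in LP1. In H929 SDC1 rose by 0.22 (SE 0.0567, edgeR adjusted p = 0.0196), with 0.0652 omitting SCR A, 0.051 omitting SCR B, 0.0555 omitting SCR C, 0.0932 omitting gN1E B and 0.0818 omitting gN1E C, and edgeR gave 0.0507 by library size only. CD38, an ectoenzyme of plasma cells, fell by 0.21 there (SE 0.0456, edgeR adjusted p = 0.00406), also with any 1 library left out. The 4 B cell markers summed to at most 0.797 TPM in a library, the 3 plasmacytoid dendritic cell markers, of the cell that makes most type I interferon, to at most 0.0652 TPM, and the 4 stromal markers to at most 1.11 TPM. At 0 in every library of a line were PAX5 and CD22 in AMO1, CD22 in H929, MS4A1 in LP1, LILRA4 and IL3RA in AMO1 and LP1, IL3RA in H929, COL1A2 and COL3A1 in AMO1 and LP1, and COL3A1 in H929. The 5 myeloid markers summed to at most 0.893 and 1.01 TPM in AMO1 and H929 and to 5.28 TPM in LP1, where CSF1R led (3.34 TPM), and FCGR1A was at 0 in AMO1 and H929. Of the 4 T cell markers CD3E alone was well above 0, at 25.8, 10.1 and 13.4 TPM in AMO1, H929 and LP1, and CD3D was at 0 in H929. In AMO1 the T cell sum was 27.7, 24.9 and 27.2 TPM (gN1E) and 29.6, 31.2 and 30.7 TPM (SCR), and the B cell sum 0.0251, 0.0412 and 0.0214 TPM (gN1E) and 0.0588, 0.0776 and 0.115 TPM (SCR). Both were lower in the gN1E libraries without overlap, and their part was not tested. The B cell sum lay near 0, with 1 of the 4 markers reaching 10 reads and MS4A1, the most abundant, at a mean of 0.0369 TPM. In LP1 the myeloid sum was 2.36, 2.74 and 3.51 TPM (gN1E) and 4.93, 5.28 and 4.01 TPM (SCR), lower in the gN1E libraries like the members, with its part not tested.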

How the data were processed

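Raw counts per gene were deposited by the authors for 18 libraries and were used as deposited, 1 table per library. Per the submitters' processing notes and the file headers, read pairs were aligned with STAR 2.7.10a to hg38 and counted by strand (setting 2) over the exons of 62703 genes of GENCODE release 43 with featureCounts 1.6.4, without counting pairs that map to several places or genes. The tables hold 0 columns of other samples, and the notes also name FastQC and limma. Libraries were grouped by their sample labels.

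In each line, the genes that reached 10 reads in any of its 6 libraries were tested with edgeR 4.0.16 in R 4.3.3 (TMM scaling, robust quasi-likelihood fit, BH adjustment, threshold 0.05), 1 fit per line without covariates, and in a joint fit of the 18 libraries for differences between lines. CPM and TPM were computed here from the counts, TPM with the exon lengths in the tables. Summed levels and promoter shares have no test. Python 3.11.15, pandas 2.3.3, numpy 2.4.6, scipy 1.17.1 and matplotlib 3.10.9 made the tables and figures.

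Named are NEAT1 and RIGI, members called in a line with their value in each library, the 5 members with the highest TPM in each line, members called for an interaction, and from the other lists the called genes and the most abundant gene. Members and lists were chosen with earlier results of these data known. Alternatives were limma-voom 3.58.1, DESeq2 1.42.0, scaling by RLE or by library size only, other filters, a 1.5-fold change with adjusted p under 0.1, the joint fit, the replicate letter as a block and each library left out. Leaving out libraries for the level between lines, the V segments, and counts over genes with 10 reads in both groups of a line, were chosen after seeing the data.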

Additional observations from a re-analysis of the deposited data

How the results depend on the processing

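No called result changed direction, while PLSCR1 in AMO1, BST2 in H929, and IFITM1, PARP12 and SAMD9 in LP1, all not called there, changed sign by library size only. By that scaling the balance of higher and lower calls among all genes turned in H929 and LP1. The number of members called in AMO1, 2, was 1 by limma-voom (0.205% of all genes called lower). With no filter on low counts it was 4 (1.06%). With a 1.5-fold change required at adjusted p under 0.1 it was 1 (0.205%), and 8 in H929 (0.626%) and 5 in LP1 (0.237%). With 1 library left out the number of members called ran from 0 to 3 in AMO1, from 10 to 15 in H929 and from 3 to 13 in LP1. Fewer libraries entered each of these fits. The share of all genes called lower then ran from 0.0829% to 1.11%, from 0.707% to 1.76% and from 0.149% to 2.14%. For the differences between lines, 0 calls became 1 by DESeq2 for AMO1 minus LP1, and ran from 0 to 1 with 1 library left out for H929 minus LP1. The log2 fold change of NEAT1 in LP1 ran from 2.00 to 2.25 with 1 library left out, over the threshold without SCR B, gN1E A, gN1E B or gN1E D. The summed level in the gN1E libraries, as a ratio to SCR, was 0.949 in AMO1 and 0.849 in H929 by total counts, and 0.912 in AMO1 as a mean of log2(CPM + 1), and both AMO1 values lost the overlap between groups. The causes were not tested.

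With the replicate letter as a block, AMO1, H929 and LP1 had 4, 15 and 10 members called, where 2.69%, 1.04% and 0.57% of all genes were called lower. Over all genes tested, libraries that share a letter deviated from their group means with correlations of 0.143, 0.146 and 0.0927 in AMO1, of -0.0119, -0.0603 and -0.0898 in H929 and of 0.11, 0.0069 and -0.0274 in LP1, which does not pair the libraries under a limit of 0.1 for each. Over genes with a mean of at least 1 CPM, a limit on genes added after seeing the data, AMO1 had 0.234, 0.205 and 0.136, above 0.1 for each letter, and H929 and LP1 had no such set. Each AMO1 library correlated best with its own letter either way, so whether AMO1 is paired depends on the genes used. The block ended the calls of PARP14 in LP1, of GBP4, PML, SOCS1 and TRAF3 in H929 and of TRAF3 in LP1. What depth limits in the calls of scarce members was not tested.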
